A study of Caenorhabditis elegans with 51 samples.

Results

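Mesoderm precursors of the *C. elegans* gastrula were compared between lineages: the descendants of MS, which form pharynx, body wall muscle and further mesoderm, and the descendants of D, which form body wall muscle only. The comparison takes 13 of the 51 libraries of the series: MS+ replicates 1 to 7 and D+ replicates 1, 2, 3, 4, 6 and 7. Each library was made from cells drawn by aspiration from a dissociated embryo of about the 100 cell stage, and the cells left over from that embryo gave a library of their own (MS- or D-). Within a series, libraries with the same replicate number are from the same embryo, so the replicates of a group are separate embryos, whereas MS+ and D+ never share one. The MS+ embryos carried pCEH-51::mNG and the D+ embryos pFKH-2::mNG, fluorescent reporters driven by the promoters of *ceh-51* and *fkh-2*. Which cells were collected therefore rests on where each promoter is active. Because each reporter was used in its own dissection series, lineage and dissection series cannot be told apart in the direct comparison.

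The D+ libraries were chosen by a measured value: the accepted D+ replicate 8 was left out because it held almost no transcript of the D marker *fkh-2*. That library had 2.35 RPKM (reads scaled to gene length and library total) of *fkh-2*, and the lowest of the 6 D+ libraries kept, replicate 2, had 93.9 RPKM. As a description, with no test, *fkh-2* had a lowest, median and highest value of 0.86, 3.09 and 346 RPKM in MS+ and of 93.9, 758.8 and 1749 RPKM in D+. MS+ replicates 1 and 3, at 346 and 230.4 RPKM, were inside the D+ range. D+ replicate 8 also held 7.11 RPKM of the muscle regulator *hlh-1* and 2.42 RPKM of the muscle regulator *unc-120*, while *R02D3.1*, whose promoter labels C descendants in the C series of the same study, was at 2061 RPKM. It held 602.3 RPKM of *lin-26*, a zinc finger gene of epidermal cells, and 728.5 RPKM of *noah-1*, a gene of the apical matrix of the epidermis.

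MS and D reach the mesoderm by different routes. In MS, maternal SKN-1 starts a cascade of zygotic factors that includes *ceh-51*, a homeobox gene, and parts of the lineage later turn on *pha-4*, the FoxA gene that directs pharynx identity. In D, maternal PAL-1, a Caudal homeodomain protein, acts before the muscle factors *hlh-1* (the MyoD homologue), *unc-120* (a relative of serum response factor) and *hnd-1* (a HAND family gene), which MS uses in its own muscle precursors.

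The total count on genes was between 1047384 (replicate 4) and 2113453 in MS+ and between 1279605 and 2058799 in D+. The number of genes over 25 RPKM, the detection threshold used by the study, was 1496 to 3714 in MS+ (median 2811). In D+ it was 1766 to 3446 (median 2044). The difference of 438.8 genes in the means did not pass (two-sided exact permutation test, p = 0.3001). MS+ and D+ hold different numbers of cells, and the part of cell number in the genes detected was not tested. Libraries of a group resembled each other little: across all tested genes, the median Pearson correlation of log2(RPKM + 25) was 0.35 within MS+, 0.30 within D+ and 0.31 between MS+ and D+, where genes are not independent replicates. For the median gene, the highest library held 38.9% of the summed RPKM in MS+ and 47.4% in D+, against 24.5% in MS- and 27.6% in D-, which hold many more cells. In such bulk libraries, fewer cells of a type and less RNA per cell cannot be told apart.

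Several libraries stood apart in genes of other lineages. Of the 12 listed gut markers, the GATA factor gene *elt-7* was at 1761 RPKM in MS+ replicate 3 and at 2950 RPKM in MS+ replicate 4, and at most 73.6 RPKM in the other MS+ libraries and 33.3 RPKM in D+. *end-1*, a GATA factor gene that acts earlier in the endoderm, was at 869 RPKM in MS+ replicate 3 and at most 13.1 RPKM in any other MS+ library. The summed gut list was 20.7 to 2975 RPKM in MS+ and 20.4 to 197.5 RPKM in D+, with *pho-1* at 0 in every MS+ and D+ library. *R02D3.1* was at 719.9, 304 and 290.4 RPKM in D+ replicates 1, 2 and 3 and at 15.7 to 49.96 RPKM in the other D+ libraries, against 1.91 to 13.3 RPKM in MS+. Every D+ library was thus above every MS+ library. The difference in mean log2(RPKM + 25), MS+ minus D+, was -2.28 and did not pass (two-sided exact permutation test, p = 5.828e-04, adjusted 0.1619). D+ replicate 4 was the only library of the 13 with more than 25 RPKM of the germ line gene *nos-2* (958 RPKM). It also held 324 RPKM of *noah-1* and 161 RPKM of *elt-1*, a GATA factor gene of the epidermis. Of further epidermal genes it held 95.3 RPKM of *lin-26*, 4.78 of *nhr-25*, 3.58 of *dpy-7* and 0.92 of *elt-3*. Its summed list of epidermis markers was 701.9 RPKM, where D+ ranged from 63.07 to 890.6 RPKM and MS+ from 16.5 to 417.8 RPKM. D+ replicate 6 held 1122 RPKM of the homeobox gene *ceh-43*, which was at most 32.7 RPKM in the other D+ libraries and 5.92 RPKM in MS+. The summed list of AB pharynx and anterior markers was 7.73 to 1046 RPKM in MS+ and 5.87 to 1172 RPKM in D+, where replicate 6 was the highest and the others were at most 38.5 RPKM. The part that these libraries played in the results was not tested, and the count of genes called between MS+ and D+ is also given without them.

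**Figure D1:**
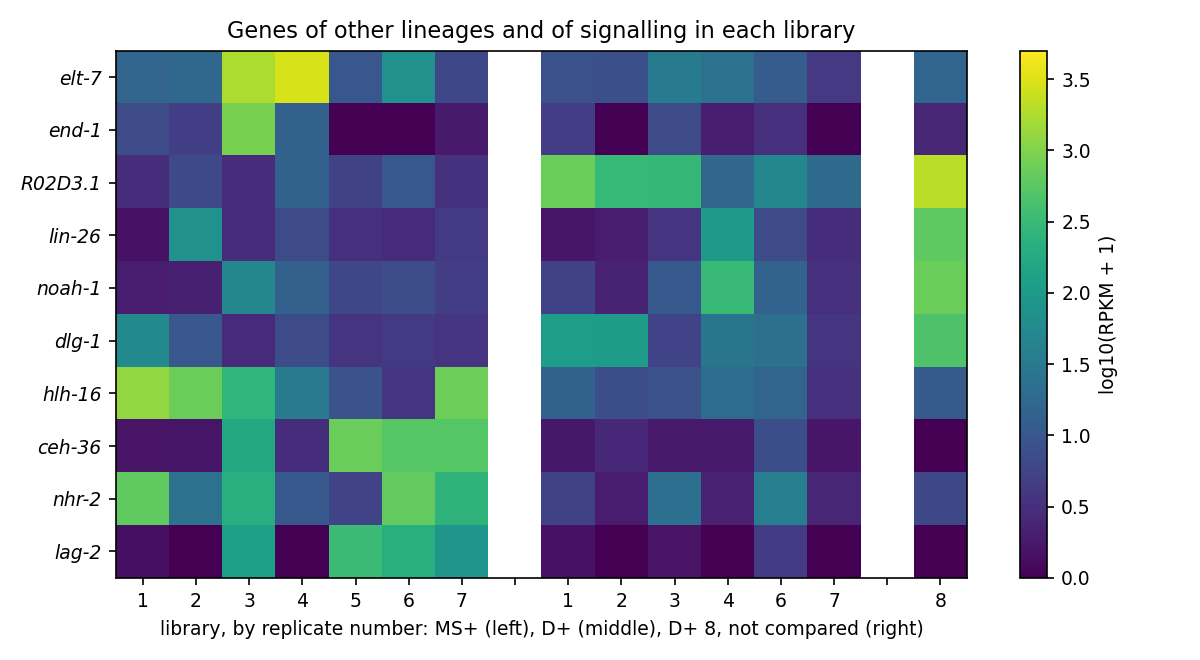
Levels of genes of other lineages and of signalling in each library, as log10(RPKM + 1), with 7 MS+ libraries on the left, 6 D+ libraries in the middle and D+ replicate 8 on the right; the genes were picked after their values were seen. MS+ replicates 3 and 4 were high in *elt-7* (1761 and 2950 RPKM), D+ replicates 1 to 3 in *R02D3.1* (290.4 to 719.9 RPKM), and D+ replicate 8 in *R02D3.1*, *lin-26* and *noah-1*.

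Few genes separated MS+ from D+ across embryos. Of 2330 genes over 25 RPKM in at least 6 of the 13 libraries, 5 were higher in MS+ than in D+ (0.215% of the genes tested) and 3 were lower (0.129%) at an adjusted p of at most 0.05 (quasi-likelihood test of edgeR, adjusted by Benjamini-Hochberg over all genes tested). The genes higher in MS+ were *unc-39*, *ceh-51*, *abcf-1*, *rtel-1* and *nsy-7*. The genes lower in MS+ were *dhp-2*, *spp-10* and *ham-1*. At an unadjusted p under 0.05, 56 genes were higher (2.4%) and 66 were lower (2.83%). Over all genes tested the log2 fold change had a median of -0.14. DESeq2 called 20 genes higher and 30 lower, and limma on log2(RPKM + 25) called 2 higher and 12 lower. Without MS+ replicates 3 and 4, the libraries high in *elt-7*, 1 gene was higher (*unc-39*) and 2 were lower (*dhp-2* and *spp-10*). Without D+ replicates 1, 2 and 3, the libraries high in *R02D3.1*, no gene passed with the 3 D+ libraries left, while 188 had an unadjusted p under 0.05. Without D+ replicate 4, and likewise without D+ replicate 6, 2 were higher and 3 lower.

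**Figure D2:**
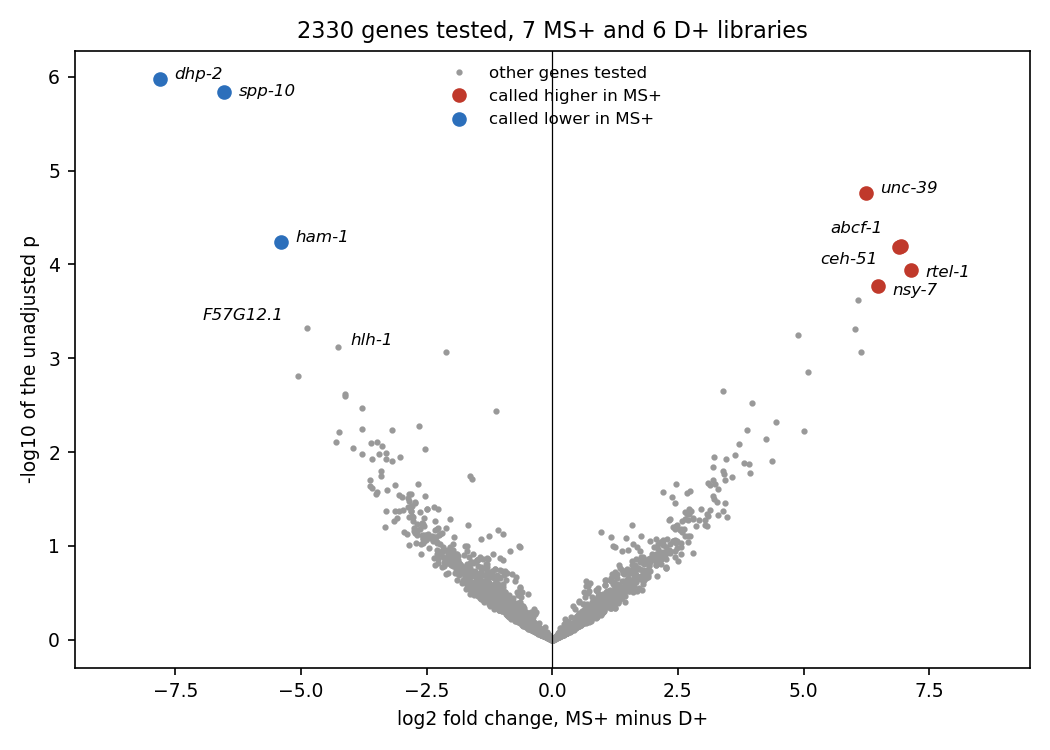
Log2 fold change, MS+ minus D+, against -log10 of the unadjusted p from edgeR for the 2330 genes tested in 7 MS+ and 6 D+ libraries, with the called genes in colour. The 5 genes called higher lie between 6.24 and 7.14 on the log2 scale and the 3 called lower between -7.81 and -5.39.

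Among the genes higher in MS+, the homeobox gene *unc-39*, a relative of Six4 and Six5 that is known from the differentiation of mesodermal cells, had the smallest p. *unc-39* (WBGene00006775, chromosome V in the Ensembl annotation of WBcel235, as for all genes below) had a lowest, median and highest value of 18.97, 1120 and 2075 RPKM in MS+ and of 3.72, 8.16 and 27.8 RPKM in D+. Of the MS+ libraries, 5 were at 902 RPKM or more, and replicates 4 and 5, at 54.01 and 18.97 RPKM, were far lower, so that replicate 5 lay inside the D+ range. The log2 fold change was 6.24 with a standard error of 1.19 (edgeR, adjusted p = 0.0134). It was called in 26 of 27 alternative settings and samples, with adjusted p from 3.007e-08 to 0.4825, and missed the threshold with only 3 D+ libraries.

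*ceh-51* (WBGene00013583, chromosome V) drove the reporter that marked the collected cells, so its rise checks the dissection and is no separate result. It had a lowest, median and highest value of 8.44, 444.4 and 2445 RPKM in MS+ and of 0.47, 5.005 and 18.1 RPKM in D+. Every MS+ library was above every D+ library but for replicate 2, whose 8.44 RPKM was below D+ replicates 4 and 6. On the log2 scale it was 6.90 higher with a standard error of 1.46 (edgeR, adjusted p = 0.0254), and the call was lost without MS+ replicate 4, the highest library (adjusted p = 0.1502), or without any single D+ library but replicate 4 (0.0539 to 0.0875). Of the 6 listed factors of MS specification, *ceh-51* and *skn-1* were over 25 RPKM in at least 2 libraries. *skn-1* (WBGene00004804, chromosome IV), a transcription factor gene that is supplied maternally, was over 25 RPKM in MS+ replicate 1, at 82.1 RPKM, and in D+ replicates 3, 4 and 7, at 225, 153.6 and 196.4 RPKM, with a difference in mean log2(RPKM + 25) of -1.26 that did not pass (two-sided exact permutation test, p = 0.07925, adjusted 0.856). The genes *med-1*, *med-2* and *tbx-35*, which belong to the cascade upstream of *ceh-51*, were at most 1.1 RPKM in every MS+ and D+ library.

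The other genes higher in MS+ are not known as factors of the mesoderm. *abcf-1* (WBGene00006512, chromosome V), which encodes an ATP-binding cassette protein of the F class, had a lowest, median and highest value of 25.1, 151 and 756 RPKM in MS+ and of 0.31, 1.01 and 6.97 RPKM in D+, with no overlap between the groups. Its log2 fold change was 6.94 with a standard error of 1.46 (edgeR, adjusted p = 0.0254). D+ replicate 8, which was not compared, held 223 RPKM of *abcf-1*, and with that library the log2 fold change was 2.45 and the call was lost (adjusted p = 0.9981). It was also lost without MS+ replicate 5 (0.0522) or without any single D+ library but replicate 6 (0.0732 to 0.0875).

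*rtel-1* (WBGene00009124, chromosome I), which encodes a DNA helicase that restrains recombination, had a lowest, median and highest value of 0.16, 34.7 and 203.9 RPKM in MS+ and of 0.17, 0.52 and 0.70 RPKM in D+. MS+ replicate 5 was as low as D+, and the other MS+ libraries were all higher than D+. The log2 fold change was 7.14 with a standard error of 1.58 (edgeR, adjusted p = 0.0386), and the D+ side rests on 1 to 5 counts per library. The call was lost without MS+ replicate 2 (adjusted p = 0.0597), without MS+ replicate 3 (0.0556), without MS+ replicate 7 (0.0636) or without any single D+ library (0.0749 to 0.1292).

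*nsy-7* (WBGene00044508, chromosome IV), a transcription factor gene known from the left-right asymmetry of the AWC olfactory neurons, had a lowest, median and highest value of 2.60, 130.4 and 460.8 RPKM in MS+ and of 0.93, 1.82 and 3.14 RPKM in D+. MS+ replicate 4 was inside the D+ range and the other 6 were above it. Its log2 fold change was 6.48 with a standard error of 1.48, at the edge of the threshold (edgeR, adjusted p = 0.0497), and it was called in 6 of 26 alternatives. It was lost without any single D+ library (0.0931 to 0.1552) and without MS+ replicate 1, 2, 3, 5 or 6 (0.0588 to 0.0795).

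In each of the 3 genes lower in MS+ than in D+, every D+ library was above every MS+ library. For *dhp-2* and *spp-10*, under 25 RPKM in every MS+ library, the filter required this, so their lack of overlap is no separate result. *dhp-2* (WBGene00000964, chromosome IV), which encodes a dihydropyrimidinase, an enzyme of pyrimidine breakdown, had a lowest, median and highest value of 0.23, 0.83 and 3.29 RPKM in MS+ and of 56.3, 271.8 and 779.5 RPKM in D+. D+ replicate 4 was the lowest of its group. *dhp-2* fell by 7.81 on the log2 scale in MS+ with a standard error of 1.24 (edgeR, adjusted p = 0.001688).

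*spp-10* (WBGene00004995, chromosome IV), a gene of the saposin-like protein family, had a lowest, median and highest value of 1.58, 6.78 and 15.4 RPKM in MS+ and of 441.9, 677 and 841 RPKM in D+. All D+ libraries were within a narrow range, more than an order of magnitude above the highest MS+ library. *spp-10* fell by 6.53 on the log2 scale in MS+ with a standard error of 1.06 (edgeR, adjusted p = 0.001688). *dhp-2* and *spp-10* were each called in 26 of 27 alternatives, the exception being the fit with 3 D+ libraries (adjusted p = 0.0681 and 0.0652). In C-in, the internalizing C descendants, which form body wall muscle too and come from other embryos, *dhp-2* was at 27.1 to 970.6 RPKM and *spp-10* at 793 to 1942 RPKM (n = 5). In C-out, the C descendants that do not internalize, *dhp-2* was at 0.64 to 41.6 RPKM and *spp-10* at 155.5 to 630.9 RPKM. A level of *spp-10* above that of MS+ was thus not particular to the groups that form muscle. D+ replicate 8 held 411 RPKM of *spp-10* and 8.23 RPKM of *dhp-2*.

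*ham-1* (WBGene00001820, chromosome IV), known for its role in asymmetric neuroblast divisions, had a lowest, median and highest value of 1.12, 3.81 and 75.5 RPKM in MS+ and of 125.4, 521 and 806 RPKM in D+. The groups did not overlap, and MS+ replicate 1 was far above the other MS+ libraries, which were at most 9.44 RPKM. Its log2 fold change was -5.39 with a standard error of 1.13 (edgeR, adjusted p = 0.0254). It was called in 17 of 27 alternatives, and with D+ replicate 8, at 4.28 RPKM, the adjusted p was 0.0576. It was lost without MS+ replicate 2, 3, 5 or 6 (0.0522 to 0.0556) or D+ replicate 1, 3 or 7 (0.0732 to 0.0875). In C-in it was at 1.72 to 5.56 RPKM in 4 libraries and at 310.2 RPKM in the other. That C-in library held 419.6 RPKM of *fkh-2*, by which D+ replicate 8 was left out, and the other 4 held at most 4.74 RPKM. MS+ replicate 1 held 346.2 RPKM of *fkh-2*, but MS+ replicate 3, with 230.4 RPKM of it, held 9.44 RPKM of *ham-1*. D+ replicate 8 held 2.35 RPKM of *fkh-2*. Whether *ham-1* follows *fkh-2* was not tested.

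**Figure D3:**
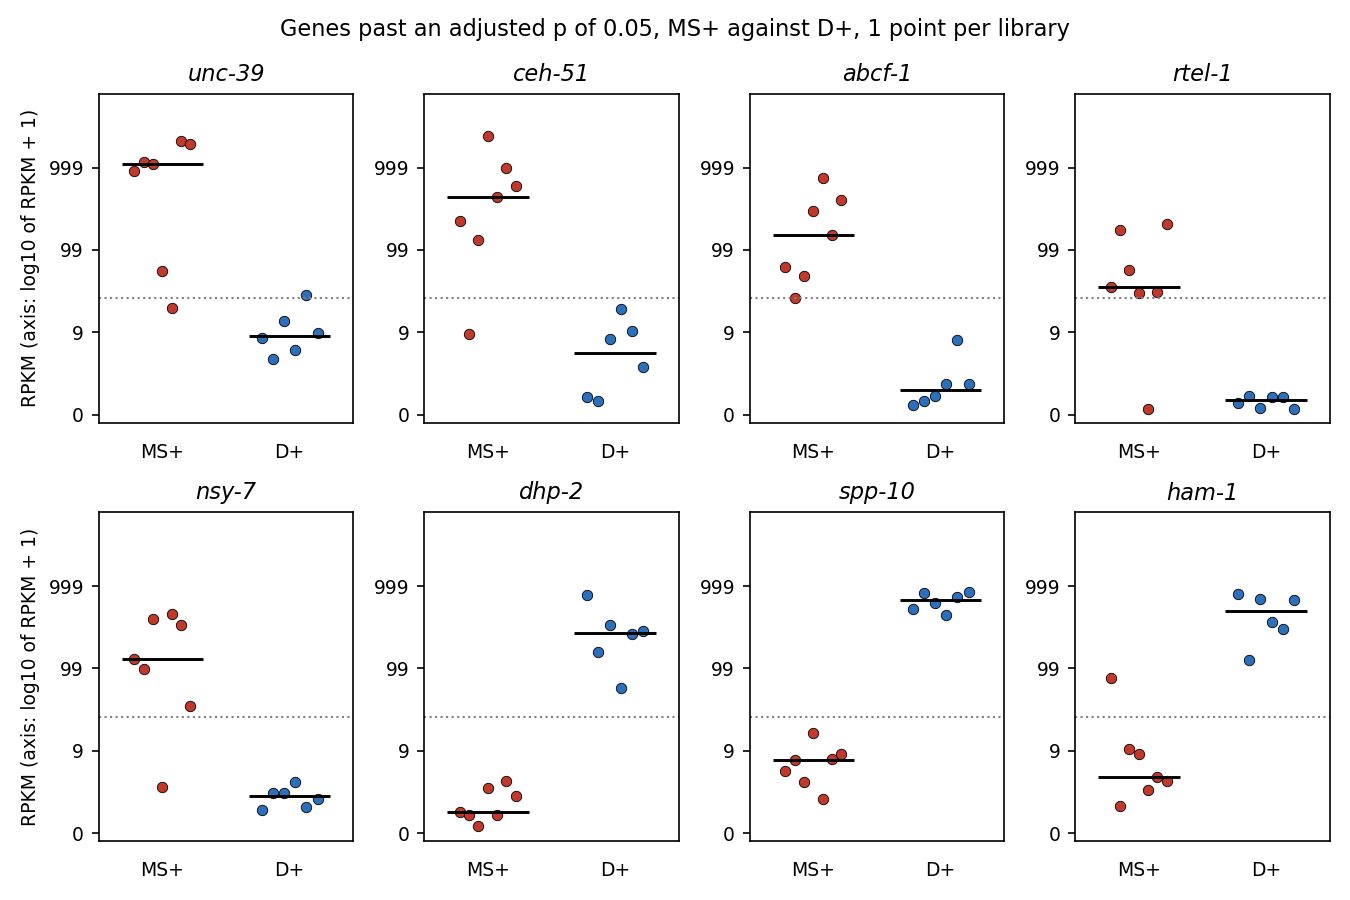
RPKM in each library, on a log axis of RPKM + 1, for the 8 genes past an adjusted p of 0.05, with 7 MS+ libraries left of 6 D+ libraries, black lines at the medians and a dotted line at 25 RPKM. *dhp-2*, *spp-10*, *ham-1* and *abcf-1* have no overlap between the groups, while single MS+ libraries fall to the D+ level in *unc-39*, *ceh-51*, *rtel-1* and *nsy-7*. A gene under 25 RPKM in every MS+ library was tested only if all 6 D+ libraries were over 25 RPKM, so *dhp-2* and *spp-10* could not overlap.

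In 3 of the 2330 genes tested, every MS+ library was above every D+ library (0.129%). In 6, every D+ library was above every MS+ library (0.258%). Among the latter, *dhp-2* and *spp-10* were under 25 RPKM in every MS+ library, so the filter left no room for overlap. A gene under 25 RPKM in every D+ library could pass with an MS+ library under it too. The filter thus entered the shares unequally, and they are not compared. Beyond the called genes, those without overlap were *sars-1* (seryl-tRNA synthetase) and *F33E11.6* on the MS+ side. On the D+ side they were *phb-2* (a prohibitin of the mitochondrial inner membrane), *lbp-3* (a lipid-binding protein gene) and *Y17D7C.4*. These genes were named after their values were seen. *sars-1* was at 54 to 352 RPKM in MS+ and 4.92 to 51.4 RPKM in D+. *phb-2* was at 1.80 to 186.6 RPKM in MS+ and 216.5 to 465 RPKM in D+. *Y17D7C.4* was at 2.88 to 149.8 RPKM in MS+ and 366 to 796.5 RPKM in D+. Their adjusted p were between 0.1029 and 0.8264 (edgeR), so none passed. D+ replicate 8, which was not compared, held 282.8 RPKM of *sars-1* and 22.7 RPKM of *Y17D7C.4*, both inside the MS+ ranges. It held 1.74 RPKM of *F33E11.6*, 419.9 RPKM of *phb-2* and 814 RPKM of *lbp-3*, inside the D+ ranges.

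The muscle factors *hlh-1*, *unc-120* and *hnd-1* were at 129.7 RPKM or more in each of the 6 D+ libraries compared and were uneven in MS+, while D+ replicate 8 held 7.11, 2.42 and 54.7 RPKM of them. Of 17 listed regulators of muscle and the D lineage, 10 were over 25 RPKM in at least 2 libraries and 6 were tested, and 0 passed an adjusted p of 0.05 in either direction (over all genes, 0.215% were higher and 0.129% lower). At an unadjusted p under 0.05, *hlh-1* and *hnd-1* were lower in MS+, and so was *fkh-2*, the gene by which a D+ library was left out, so nothing is read from that count.

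*hlh-1* (WBGene00001948, chromosome II) had a lowest, median and highest value of 2.24, 28.7 and 208.8 RPKM in MS+ and of 130.1, 783 and 1504 RPKM in D+. Only MS+ replicate 5 reached into the D+ range, above D+ replicate 4, and 4 of 7 MS+ libraries were over 25 RPKM. For *hlh-1* the log2 fold change was -4.27 with a standard error of 1.12 and did not pass (edgeR, adjusted p = 0.1338). It passed with limma on log2(RPKM + 25) (adjusted p = 0.0147) and with DESeq2 (adjusted p = 1.762e-04). In C-in *hlh-1* was at 248.6 to 1148 RPKM.

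*unc-120* and *hnd-1* overlapped more. *unc-120* (WBGene00006844, chromosome I) had a lowest, median and highest value of 6.23, 169 and 926 RPKM in MS+ and of 129.7, 946 and 1355 RPKM in D+, a log2 fold change of -1.30 with a standard error of 0.96 (edgeR, adjusted p = 0.9968). *hnd-1* (WBGene00001981, chromosome X) had a lowest, median and highest value of 12.5, 476 and 1781 RPKM in MS+ and of 218.7, 2374 and 4702 RPKM in D+, a log2 fold change of -2.54 with a standard error of 0.90 (edgeR, adjusted p = 0.5669). MS+ libraries did not rank alike for the 3 muscle factors: replicate 4 was the highest MS+ library for *unc-120* at 926 RPKM and held 4.53 RPKM of *hlh-1*, and replicate 6 was the highest for *hnd-1*. MS+ replicate 7 was low in all 3, with 2.29 RPKM of *hlh-1*, 8.67 of *unc-120* and 12.5 of *hnd-1*.

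The other listed regulators of the D and muscle side were detected in part of the D+ libraries. *pal-1* (WBGene00003912, chromosome III) was over 25 RPKM in 4 of 6 D+ libraries, at 76.3 to 226 RPKM, and in 1 of 7 MS+ libraries, at 41.3 RPKM. The Wnt ligand gene *cwn-1* (WBGene00000857, chromosome II) was at most 4.61 RPKM in MS+ and reached 658.5 RPKM in D+ replicate 3 and 329.9 RPKM in D+ replicate 4, with 3 of 6 D+ libraries over 25 RPKM. The T-box gene *tbx-8* (WBGene00006545, chromosome III) was at most 17.5 RPKM in MS+ and over 25 RPKM in 3 of 6 D+ libraries, up to 617 RPKM. These genes were under the filter, so their log2(RPKM + 25) was averaged per group and the means compared, MS+ minus D+, with a two-sided exact permutation test adjusted over all 3056 genes that were under the filter and over 25 RPKM in at least 2 libraries. By this exact permutation test the difference was -1.69 for *cwn-1* (p = 0.003497, adjusted 0.5088), -1.67 for *tbx-8* (p = 0.0105, adjusted 0.5769) and -1.63 for *pal-1* (p = 0.0315, adjusted 0.6402), and none passed. The smallest adjusted p that any of the 3056 genes reached was 0.162, a value that *R02D3.1* had. At an unadjusted p under 0.05, 96 were higher and 104 lower in MS+. The posterior Hox gene *nob-1* was at most 1.69 RPKM in MS+ and was over 25 RPKM in D+ replicates 4 and 6, at 25.98 and 731 RPKM, replicate 6 being the library high in *ceh-43*. *tbx-9*, the near paralogue of *tbx-8*, was over 25 RPKM in 2 of 7 MS+ libraries, up to 273 RPKM, and in 4 of 6 D+ libraries, up to 383 RPKM (edgeR, adjusted p = 0.9968).

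*hlh-2* (WBGene00001949, chromosome I), the E protein that pairs with many basic helix-loop-helix factors, was over 25 RPKM in 7 of 7 MS+ libraries and in 2 of 6 D+ libraries. Its lowest, median and highest values were 42.2, 290.6 and 350.3 RPKM in MS+ and 3.02, 9.52 and 176.9 RPKM in D+. D+ replicates 6 and 7, at 176.9 and 44.5 RPKM, were inside the MS+ range. For *hlh-2* the log2 fold change was 2.11 with a standard error of 1.22 (edgeR, adjusted p = 0.9968).

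Pharynx regulators were low in most D+ libraries and none was over 25 RPKM in all 7 MS+ libraries. Of 13 listed, 6 were over 25 RPKM in at least 2 libraries and 1 was tested. *pha-4* (WBGene00004013, chromosome V) had a lowest, median and highest value of 2.29, 141.5 and 602 RPKM in MS+ and of 0.31, 0.88 and 2.0 RPKM in D+. The groups did not overlap, but MS+ replicates 4 and 6, at 4.99 and 2.29 RPKM, were close to D+. The mean log2(RPKM + 25) was 2.51 higher in MS+ (two-sided exact permutation test, p = 0.005245, adjusted 0.5155). The NK-2 homeobox gene *ceh-27* (WBGene00000449, chromosome V) was over 25 RPKM in 5 of 7 MS+ libraries, up to 524 RPKM, and at most 24.4 RPKM in D+, a difference of 2.20 (two-sided exact permutation test, p = 0.0134, adjusted 0.5769).

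*eya-1* (WBGene00001377, chromosome I), an Eyes absent family gene that acts with *ceh-34* in pharynx and other mesoderm, had a lowest, median and highest value of 1.67, 215 and 526 RPKM in MS+ and of 0.70, 4.93 and 136.6 RPKM in D+. D+ replicates 2 and 6, at 136.6 and 28.2 RPKM, were above MS+ replicates 4 and 6. The log2 fold change was 2.97 with a standard error of 1.38 (edgeR, adjusted p = 0.8921). *ceh-34* (WBGene00000455, chromosome V) was over 25 RPKM in MS+ replicates 1, 2 and 5, up to 329.6 RPKM, and at most 2.59 RPKM in D+, a difference of 1.12 (two-sided exact permutation test, p = 0.1107, adjusted 0.8675). The T-box gene *tbx-2*, needed for anterior pharyngeal muscle, was over 25 RPKM in 1 library of each group, MS+ replicate 1 at 452.8 RPKM and D+ replicate 2 at 228.9 RPKM. *pha-1* was likewise over 25 RPKM only in MS+ replicate 6, at 30.5 RPKM, and D+ replicate 2, at 120.9 RPKM. In the list of regulators of mesoderm other than muscle, 4 of 12 were over 25 RPKM in at least 2 libraries (*unc-39*, *eya-1*, *ceh-34* and the Notch ligand family gene *dsl-1*), and of the 2 tested *unc-39* was called and *eya-1* was not, where 0.215% of all genes were called higher. *dsl-1* was at 477 RPKM in MS+ replicate 1, 46.7 RPKM in replicate 3 and at most 4.18 RPKM in D+. *hlh-8*, a Twist family gene of the M mesoblast, was at 805 RPKM in MS+ replicate 2 and at most 4.85 RPKM in the other MS+ and D+ libraries.

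**Figure D4:**
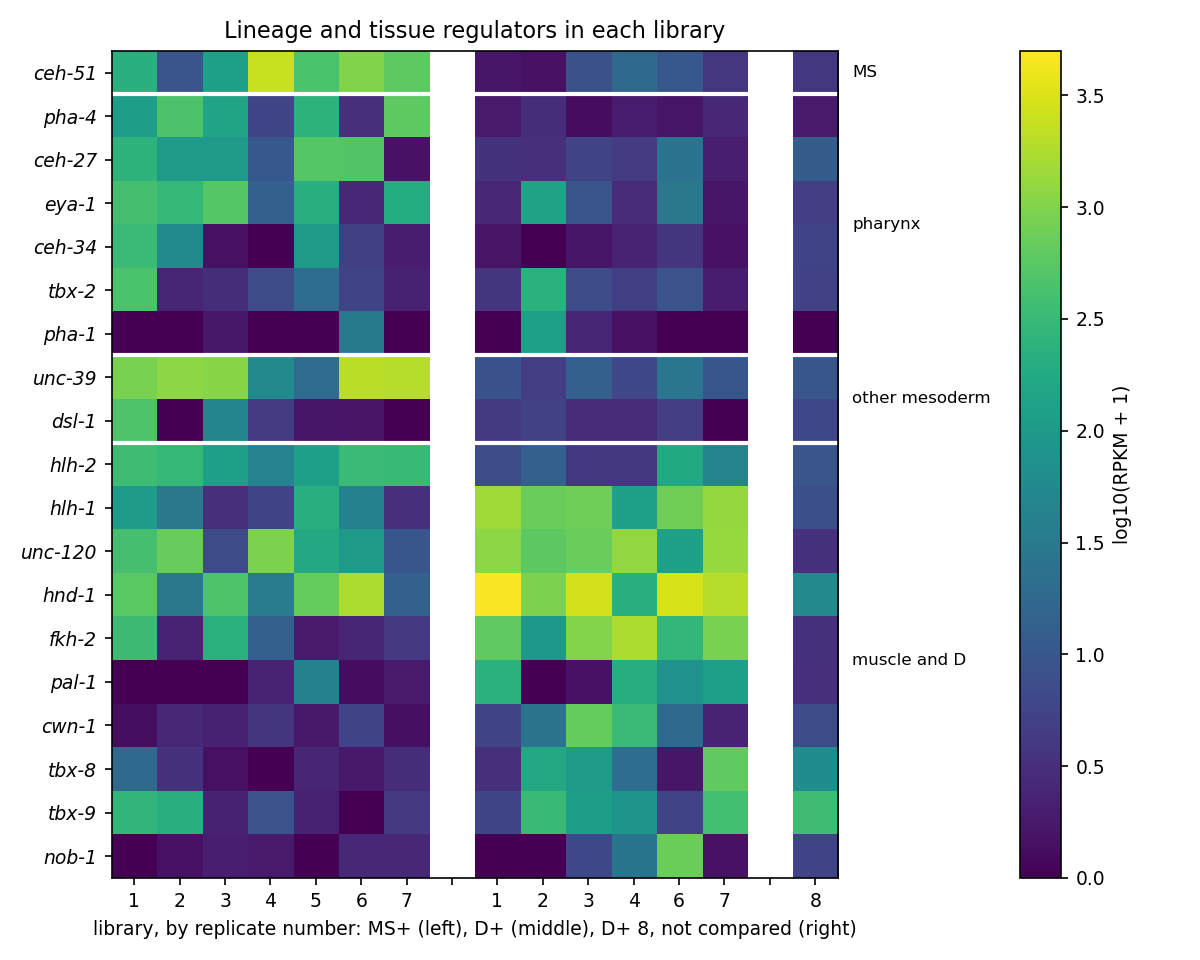
Levels of lineage and tissue regulators in each library, as log10(RPKM + 1), with 7 MS+ libraries on the left, 6 D+ libraries in the middle and D+ replicate 8 on the right. *hlh-1*, *unc-120* and *hnd-1* are at 129.7 RPKM or more in all 6 D+ libraries, *pha-4* is at most 2.0 RPKM in them, and no pharynx regulator is high in all 7 MS+ libraries.

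Few structural genes of muscle were abundant enough in MS+ and D+ to be tested. Of 25 listed, 9 were over 25 RPKM in at least 2 libraries and 5 were tested (*act-1*, *act-2*, *act-3*, *act-4* and *unc-60*), and 0 passed in either direction or had an unadjusted p under 0.05 (edgeR), which is near the background of 0.215% higher and 0.129% lower over all genes and is no result about the list. The actin genes are near-identical in sequence, so that reads could have been counted on another member. The myosin genes *myo-3* and *unc-54* and the paramyosin gene *unc-15* were under 25 RPKM in every MS+ and D+ library. *unc-27*, a troponin I gene, was at most 1.15 RPKM in MS+ and at 100.3 and 601 RPKM in D+ replicates 2 and 3, a difference of -1.28 on log2(RPKM + 25) (two-sided exact permutation test, p = 0.001166, adjusted 0.274). *pat-9*, a zinc finger gene needed in body wall muscle and named after its values were seen, was over 25 RPKM in 1 of 7 MS+ libraries, at 251.9 RPKM, and in 5 of 6 D+ libraries, up to 635.9 RPKM. It was among the genes tested and did not pass (edgeR). Its RPKM rest on a length of 2500 bases that the tables give to 1350 genes alike. Of the 18 listed muscle attachment genes 4 were tested and 0 were called.

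Signalling, adhesion and contractility genes were partly under the filter. Of 27 listed genes of Wnt and beta-catenin asymmetry 10 were tested, of 21 Notch genes 4, of 16 basement membrane genes 5, of 23 apical constriction genes 9 and of 36 genes that depend on SKN-1 6, and 0 passed in any of these lists (edgeR), which is again near the background of 0.215% and 0.129%. Their median log2 fold changes were -0.09, 1.24, 0.17, -0.11 and -0.15, beside -0.14 over all genes tested. The members closest to the threshold did not pass: *lit-1*, a Nemo-like kinase of Wnt asymmetry, had 44.8 to 1015 RPKM in MS+ and 14.8 to 239 RPKM in D+ (log2 fold change 2.37, adjusted p = 0.8264), and *pxn-2*, a peroxidasin of basement membranes, had 0.39 to 38.7 RPKM in MS+ and 0.69 to 210.8 RPKM in D+ (-3.40, adjusted p = 0.6861). *nmy-2*, the non-muscle myosin of apical constriction, had 0.82 to 47.3 RPKM in MS+ and 1.63 to 194 RPKM in D+ (-2.55, adjusted p = 0.9286). Of the marker lists, the germ line list member *mes-3*, a partner of Polycomb group proteins, had 1.26 to 236.5 RPKM in MS+ and 0 to 37.04 RPKM in D+ (3.43, adjusted p = 0.8734), and the gut list member *erm-1*, an ezrin family gene, had 0.96 to 592.7 RPKM in MS+ and 0.47 to 181 RPKM in D+ (2.45, adjusted p = 0.9968). *sdz-25*, which the list gives as dependent on SKN-1, had a lowest, median and highest value of 76.5, 627 and 1241 RPKM in MS+ and of 981.9, 1331 and 3601 RPKM in D+, with only MS+ replicate 7 inside the D+ range (-1.63 with a standard error of 0.65, adjusted p = 0.7243). *F57G12.1* (WBGene00010221, chromosome X), the gene with the smallest p among those lower in MS+ that were not called, was at 0.46 to 47.5 RPKM in MS+ and 36.3 to 792 RPKM in D+ (-4.89, adjusted p = 0.1029).

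The remaining cells of the same embryos were compared between the 2 series, on the 2330 genes that passed the filter in MS+ and D+. MS- and D- share most lineages, but MS- holds the D cells and D- the MS cells. Genes under the filter were not tested here, and some differed. Picked after its values were seen, *sdz-5* was at 178.7 to 999.4 RPKM in MS- and at most 3.93 RPKM in D-. Likewise, *ceh-34* was at most 1.03 RPKM in MS- and at 1.18 to 386 RPKM in D-. Between MS- (n = 7) and D- (n = 6), 1 of the 2330 genes was higher (0.0429%) and 0 were lower (0%) at an adjusted p of 0.05 (edgeR), with 115 at an unadjusted p under 0.05, and DESeq2 called 3 higher and 1 lower and limma 0 and 0. The gene was *vet-6* (WBGene00006902, chromosome I), a very early zygotic transcript, at 1.10 to 243 RPKM in MS- and at most 1.63 RPKM in D- (log2 fold change 7.27 with a standard error of 1.10, edgeR, adjusted p = 0.0125), and it was lost without D- replicate 1, 2, 3, 4 or 7. In the marked cells *vet-6* was at 0.39 to 147 RPKM in MS+ and 1.55 to 279.7 RPKM in D+. None of the 8 genes called between MS+ and D+ passed between MS- and D-, with log2 fold changes from -1.62 (*rtel-1*) to 1.17 (*ceh-51*) and adjusted p of 0.9674 or more. *dhp-2* had -0.03, *spp-10* had 0.01 and *unc-39* had -0.74.

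The marked cells were then compared relative to the remaining cells, as the difference between MS+ over MS- and D+ over D-, with the embryo as a block. This contrast contains the same MS+ and D+ libraries and is not independent of the direct one. MS- holds the D cells and D- the MS cells, so the lineage difference also enters through the remaining cells. A value as large as the direct one or larger therefore cannot be read as free of the series. How far this moved the values was not tested. No gene was higher (0%) and 2 were lower (0.0858%), *ham-1* (-5.85, adjusted p = 0.0499) and *spp-10* (-6.50, adjusted p = 0.0499), with 153 genes at an unadjusted p under 0.05, 91 higher and 77 lower with DESeq2 and 3 and 12 with limma. *dhp-2* (-8.34, adjusted p = 0.0563), *hlh-1* (-5.63, adjusted p = 0.0814) and *unc-39* (6.39, adjusted p = 0.1374) were as far apart as in the direct comparison or farther and did not pass (edgeR). Both calls sit at the threshold: without D embryo 1 the adjusted p was 0.20 for each, and no gene passed as lower without MS embryo 2, 3, 5 or 7 or without D embryo 1, 3, 4 or 6.

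**Figure D5:**
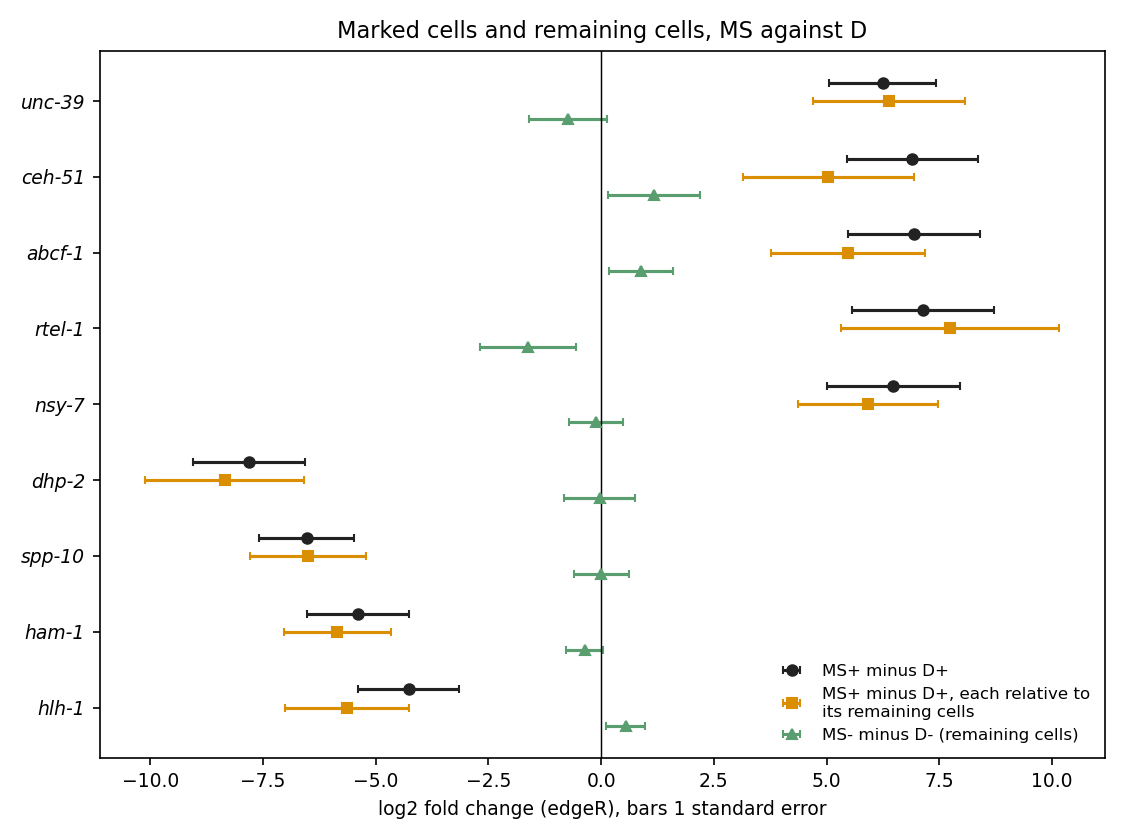
Log2 fold changes from edgeR with bars of 1 standard error for the 8 called genes and *hlh-1*: MS+ minus D+ (circles), the same relative to the remaining cells (squares) and MS- minus D- (triangles). The first 2 share the MS+ and D+ libraries and are not independent. They have the same sign for each gene, from -8.34 for *dhp-2* to 7.74 for *rtel-1*, while the remaining cells lie between -1.62 and 1.17.

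Genes that are known from other lineages or from signalling were also uneven within MS+. Of the 18 listed neuron and ABp markers 5 were over 25 RPKM in at least 2 libraries, and the summed list was 82.6 to 1906 RPKM in MS+ and 8.29 to 829 RPKM in D+, overlapping. The genes that follow were named after their values were seen, and none passed the two-sided exact permutation test adjusted over the 3056 genes under the filter (adjusted p 0.6653 for *hlh-16*, 0.7582 for *ceh-36*, 0.848 for *lag-2* and 0.6627 for *nhr-2*). The basic helix-loop-helix gene *hlh-16* was at 268 RPKM or more in MS+ replicates 1, 2, 3 and 7, at most 33.3 RPKM in the others and at most 19.4 RPKM in D+. The Otx homeobox gene *ceh-36* was at 175 to 719.5 RPKM in MS+ replicates 3, 5, 6 and 7 and at most 6.77 RPKM in the other MS+ libraries and in D+. *lag-2*, a Notch ligand gene, was at 84.2 to 328.6 RPKM in the same 4 MS+ libraries, at most 0.41 RPKM in the others and at most 3.51 RPKM in D+. *nhr-2*, a nuclear receptor gene, was at 216 to 648 RPKM in MS+ replicates 1, 3, 6 and 7 and at most 37.9 RPKM in D+. In the remaining cells *lag-2* was at most 0.95 RPKM in MS- and 21.2 RPKM in D-, the other 3 genes being present there.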

How the data were processed

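RNA of hand-dissected cells from embryos of about the 100 cell stage was amplified with SMARTer Ultra Low and made into libraries with Nextera XT. The authors deposited, per library, counts per gene and RPKM, which scale the counts to gene length and library total. The submitters' processing notes name the build ce10 and bedtools; the sources used here do not give the aligner, the counting rule or the use of strand, so antisense and overlapping genes cannot be told apart. Each table holds 31383 genes, of which 24784 matched the Ensembl annotation of WBcel235 by name. Embryos rejected by the authors on their spike-in reads were left out, except for D+ replicate 5 in 1 alternative.

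Deposited counts were compared with edgeR 4.0.16 (TMM scaling, quasi-likelihood test) in R 4.3.3, on genes over 25 RPKM in at least 6 of the 13 libraries, with an adjusted p of 0.05. DESeq2 1.42.0 and limma 3.58.1 were alternatives, as were other filters, scalings and samples. Genes under the filter were compared on log2(RPKM + 25) by an exact permutation test over 1716 assignments, whose smallest p is 0.000583. By rule, the genes named were the called genes, in a direction with fewer than 5 calls the 5 with the smallest p, the members of the 4 lists of regulators that were over 25 RPKM in at least 2 libraries and, in each other list, the 3 members with the smallest p. Of these last, values are given only where the unadjusted p was under 0.1, a limit added after the values were seen. A gene that this rule names, which did not pass, is not reported here. The members and gene lists were chosen with earlier results of these data known. The test scripts were tested on simulated data.

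Total counts of 1047384 to 2113453 per library put the floor of 3 counts at 1.42 to 2.86 CPM in MS+ and 1.46 to 2.34 CPM in D+. Amplified reads without molecular identifiers are not independent molecules, so the floor covers counting error only. The dissected cells of an embryo are 1 library, with no technical repeat.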

Additional observations from a re-analysis of the deposited data

Results flagged for a closer look

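Of 18 group values that were examined for a library far from the others, 2 stood out, where chance gives about 1 in 20. The level of *ham-1* on log2(RPKM + 25) was highest in MS+ replicate 1 at 6.65, and the level of *abcf-1* was highest in D+ replicate 6 at 4.999. The *abcf-1* value is 6.97 RPKM, under the detection threshold of 25 RPKM, beside 0.31 to 1.38 RPKM in the other D+ libraries compared. The difference between the lineages relative to the remaining cells passed its own test in 2 genes, *ham-1* (-5.85) and *spp-10* (-6.50), each with an adjusted p of 0.0499 from edgeR.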

How the results depend on the processing

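Between MS+ and D+, the numbers of genes higher and lower were 20 and 30 with DESeq2, 2 and 12 with limma on log2(RPKM + 25), 3 and 9 with limma on log2(RPKM + 1), 64 and 125 with at least 1 count in 2 libraries as the filter, 5 and 5 with filterByExpr, 6 and 11 with over 25 RPKM in 3 libraries, and 14 and 13 with all accepted libraries in the fit. They were 1 and 2 without the MS+ libraries high in *elt-7* and 0 and 0 without the D+ libraries high in *R02D3.1*, both chosen after seeing the data. Leaving out each library in turn gave 1 to 5 higher and 2 to 5 lower. The share of calls that were higher was 62.5%, against 40% with DESeq2 and 14.3% with limma on log2(RPKM + 25), and the median fold change of all genes moved between -0.35 with DESeq2 and 0.32 with limma on log2(RPKM + 1).

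Relative to the remaining cells, the numbers higher and lower were 8 and 5 without the replicate block, 91 and 77 with DESeq2, 3 and 12 with limma, and 0 lower with median-ratio scaling, with 0 to 1 higher and 0 to 5 lower leaving out each embryo. Between MS- and D- they were 3 and 1 with DESeq2, 0 higher with limma, and 0 to 1 higher leaving out each library. With the replicate number as a block, 3 were higher and 5 lower between MS+ and D+ and 0 were higher between MS- and D-. Same-numbered MS+ and D+ libraries are different embryos, so they were not paired in the main fit. Their r was -0.04 to 0.06, beside a median of -0.009 for other pairs, and 3 of 6 MS+ libraries correlated best with their own number. Whether same-numbered libraries share a factor was not tested. The cause of these changes was not tested.

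Small values changed sign. Leaving out each library, *tbx-2* ranged from -0.46 to 0.63 and *pha-1* from -0.44 to 0.15 between MS+ and D+. Between MS- and D-, *dhp-2* ranged from -0.30 to 0.70 and had 0.10 with limma and 0.082 with the block. *nsy-7* ranged from -0.36 to 0.14 and had 0.11 with D- replicate 8, 0.007734 with limma and 0.13 with the block. *spp-10* ranged from -0.51 to 0.22 and had -0.7955 with D- replicate 8, -0.005019 with median-ratio scaling, -0.004773 with DESeq2, -0.42 with limma and -0.56 with the block. Of the other values for single genes, 927 kept their direction and side of the threshold, 99 missed the threshold and 37 newly passed it. Thinned to the smallest library total, MS+ exceeded D+ by 440.8 detected genes, against 438.8 without thinning.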
